A study of Homo sapiens with 13 samples.

Results

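The ATP-binding cassette (ABC) transporter family was followed across parental and FK866-resistant CCRF-CEM cells. Its members were taken by symbol as all non-control probes named ABC with a subfamily letter from A to G and a number, a rule that used no measured value. It took 75 of 34127 probes, which stand for 49 of 25940 gene names on the array. Subfamily A held 14 genes on 18 probes, B 9 genes on 15 probes, C 13 genes on 24 probes, D 4 genes on 8 probes, E 1 gene on 2 probes, F 3 genes on 3 probes and G 5 genes on 5 probes. Of the 49 genes, 45 are listed as protein coding and 4 as pseudogenes.

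CCRF-CEM (CEM) cells come from a T cell acute lymphoblastic leukemia, and FK866 inhibits NAMPT, the enzyme that recycles nicotinamide into NAD. Total RNA was hybridised on 13 one-colour expression arrays in 4 groups labelled as biological replicates. These were parental cells (CEM PA) under mock treatment with DMSO (3 arrays), CEM PA under 5 nM FK866 for 48 h (2 arrays), resistant cells (CEM RES) under mock (4 arrays) and CEM RES under 5 nM FK866 for 48 h (4 arrays). CEM RES is a population selected by stepwise exposure until it resisted 100 nM FK866, so its mock group is not drug-naive. The paper states that its resistant cells were routinely kept in medium with 100 nM FK866, well above the 5 nM given here.

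ABC proteins bind and hydrolyse ATP, and most of them use that energy to move a substrate across a membrane. ABCB1 (P-glycoprotein), ABCC1 (MRP1) and ABCG2 (BCRP) are the pumps best known for exporting anticancer drugs, while other members carry lipids, peptides, haem or iron-sulphur intermediates and acyl-CoAs. ABCE1 and the F subfamily have no membrane-spanning part and act on ribosomes.

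Values are log2 probe signals after quantile normalization, and within a group arrays are given in the order of their replicate numbers. The arrays had 26457 to 33239 of 43118 spots well above background, a scanner call that the spot exceeds its local background by a set margin. Replicate 1 of CEM RES mock stood apart, with the lowest upper-quartile raw signal (536.8, against 775.0 to 1588.7 elsewhere) and the most spots called outliers (773, against 195 to 344). T cell markers were well above background on all arrays (10 of 10). The log2 of their summed signal was 17.28 to 17.34 in CEM PA mock and 17.50 to 17.60 in CEM RES mock. Most of that sum came from CD3D, with means of 16.82 and 16.93. Of the 10 markers, 3 were higher in CEM RES mock, RAG1 (1.75 ± 0.33, SE), CD3G (1.20 ± 0.17) and CD3E (1.12 ± 0.19). Lower were 2, CD5 (-1.96 ± 0.35) and PTCRA (-1.24 ± 0.22). Markers of other lineages differed between the lines: 2 of 4 tested B cell markers were lower in CEM RES, among them CD79B with a difference of -1.17 ± 0.18 (SE), and 2 of 3 tested erythroid markers were higher, among them ALAS2 with 0.57 ± 0.20. The summed B cell signal ran from 11.81 to 12.01 in CEM PA mock and from 11.11 to 11.81 in CEM RES mock, and the summed erythroid signal from 7.75 to 8.25 and from 8.13 to 9.47. None of the 2 tested myeloid and 2 tested epithelial or fibroblast markers was called between the lines, and EPCAM, CDH1 and COL1A1 were well above background on no array. Their part in the results below was not tested.

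Several probes were present for 20 genes, and they lay at different places in the gene, so each probe was tested and is described separately. The first 30 of the 60 probe bases are shown for 4 genes, because 2 of them (ABCC5 and ABCA2) had probes that disagreed and 2 (ABCE1 and ABCB10) had neighbouring probes that moved together. Positions are those of the array's annotation on hg19, and the letters are the probe's own, 5′ to 3′.
ABCC5 A_23_P258221, chr3:183637742-183637801, minus strand: tcgccttagcatgtttgctgaacaccttgt
ABCC5 A_33_P3298062, chr3:183701567-183701626, minus strand: cacctgctgtacagtgtttgtgagatgctc
ABCC5 A_33_P3298057, chr3:183705586-183705645, minus strand: aagggttgtgtggatcttctgccgcaccag
ABCA2 A_23_P43504, chr9:139902300-139902359, minus strand: aggacacgctccactgaccacccagagctg
ABCA2 A_33_P3251672, chr9:139918595-139918654, minus strand: tgctgttctttatcctgctggggctgcgac
ABCE1 A_32_P108474, chr4:146048917-146048976, plus strand: ttcctgaagaggcccttttgtgcataatat
ABCE1 A_23_P41380, chr4:146049642-146049701, plus strand: aggcaacattaatgcaaaagtccccagatg
ABCB10 A_23_P201918, chr1:229652711-229652770, minus strand: catggatgaggctagaccctaagaagtaat
ABCB10 A_32_P23624, chr1:229652925-229652984, minus strand: agtttggaagtccttgctattcaacagaat

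Of the 75 probes, 39 were well above background on all 13 arrays, 19 on none, and 44 (from 29 genes) on all arrays of 1 or more of the groups. Only these 44 were tested. The remaining 31 probes were not. All probes of subfamilies E and F passed, whereas only 7 of 18 probes of subfamily A did. Subfamily B had 8 of 15 probes tested, C 13 of 24, D 7 of 8 and G 4 of 5.

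For 20 genes no probe was tested. Of these, ABCA13, ABCA17P, ABCC3, ABCC9, ABCC11, ABCC12, ABCD2 and ABCG8 were well above background on no array with any probe. ABCA3, ABCA5, ABCA6, ABCA8, ABCA10, ABCA12, ABCB1, ABCB4, ABCB5, ABCB11, ABCC13 and ABCC6P1 had 1 probe each that reached the call on 1 to 4 of the 13 arrays, and ABCA3 was the member with 4. ABCA1, ABCC2 and ABCC6 each had 1 probe that was well above background on no array beside probes that were tested. The number of ABC probes well above background per array ran from 41 to 48, and the groups overlapped.

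**Figure D1:**
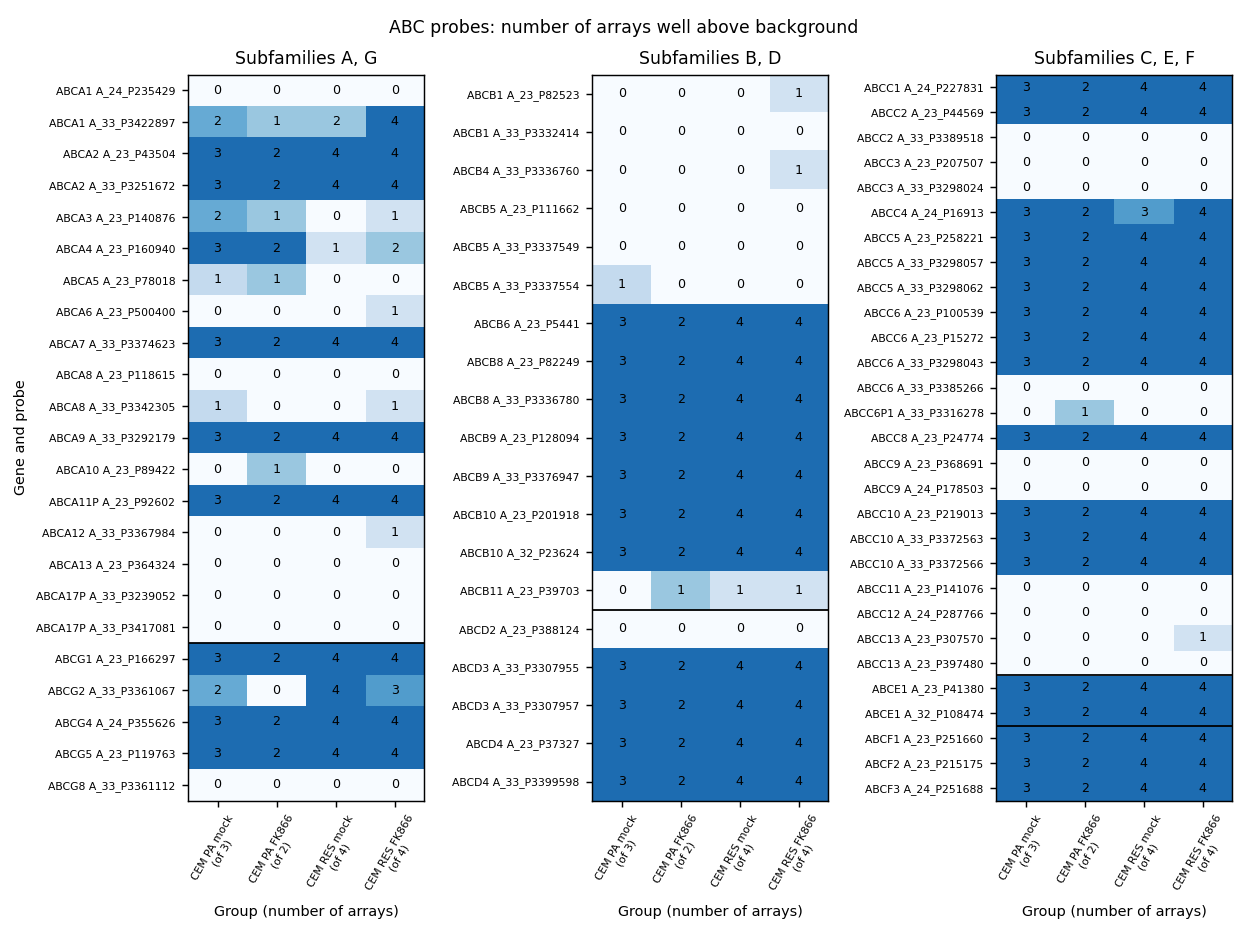
Each row is 1 of 71 ABC probes and each column 1 of the 4 groups; the number and the shade give how many of the group's arrays (2, 3 or 4) had the probe well above background. Both ABCB1 probes are nearly blank, with 1 call on 13 arrays, and ABCA4 and ABCG2 differ in their number of calls between the lines.

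The comparison of the lines addresses whether the RNA of a drug pump was more abundant in the resistant cells. Pump protein and drug efflux were not measured on these arrays. ABCB1, the classical multidrug pump, was at background in both lines. Its probe A_23_P82523, which is spotted 10 times on the array, read 1.46, 1.85 and 1.99 in CEM PA mock, 1.53 and 2.14 in CEM PA with FK866, 1.67, 1.56, 1.26 and 1.61 in CEM RES mock, and 1.35, 1.54, 2.19 and 1.81 in CEM RES with FK866. All groups overlapped, and only replicate 3 of CEM RES with FK866 was called well above background. Its second probe, A_33_P3332414, was well above background on 0 of 13 arrays. No fold is given for a gene at background in both lines.

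ABCG2 exports drugs and urate and was called well above background on some arrays of both lines. It read 1.33, 3.60 and 3.80 in CEM PA mock (2 of 3 arrays well above background), 3.75 and 1.91 in CEM PA with FK866 (0 of 2), 5.47, 3.89, 3.87 and 3.39 in CEM RES mock (4 of 4) and 3.25, 3.86, 4.25 and 3.30 in CEM RES with FK866 (3 of 4). The mock groups overlapped and the difference between the lines, 1.24 ± 0.65 (SE), did not pass the test (adjusted p = 0.134). The probe was tested only because of the CEM RES mock group, where it read highest. The difference was 0.45 without replicate 1 of CEM PA mock and 0.80 without replicate 1 of CEM RES mock, the array that stood apart. With CEM PA mock arrays raised to the lowest signal called well above background on them, CEM RES mock was 1.19-fold higher.

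ABCC1, which exports glutathione and glucuronide conjugates, was measured on all 13 arrays and was modestly higher in CEM RES. It read 8.91, 8.41 and 8.57 in CEM PA mock, 8.21 and 8.43 in CEM PA with FK866, 9.27, 9.15, 8.94 and 9.31 in CEM RES mock, and 8.96, 9.27, 9.05 and 9.06 in CEM RES with FK866. Every CEM RES array was above every CEM PA array of the same treatment. The difference was 0.54 ± 0.16 (SE) under mock (1.45-fold, adjusted p = 0.0143) and 0.77 ± 0.18 under FK866 (1.70-fold, adjusted p = 0.00597). The first lost its call without replicate 2 of CEM PA mock (adjusted p = 0.0694), and the second without replicate 1 of CEM PA with FK866 (adjusted p = 0.0795).

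Across the family, the share of members called between the lines under mock was near that of all probes. With an adjusted p under 0.05, 10 of the 44 tested ABC probes were higher in CEM RES mock than in CEM PA mock (22.7% of them, against 24.9% of all 22753 probes tested) and 12 were lower (27.3%, against 22.7%). These 22 probes came from 17 genes. Without replicate 3 of CEM PA mock 14 ABC probes were called, 5 higher and 9 lower. Of all 22753 probes, 4968 were then higher and 4588 lower, against 5667 and 5168 with all arrays. The median log2 difference over the ABC probes was -0.04, and over all probes 0.04. By the study's double threshold, an unadjusted p under 0.05 with an absolute log2 fold change over 0.75, 14 of 44 were called, against a background of 35.6%.

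With both lines under FK866, 4 ABC probes were higher in CEM RES (9.09% of them, against 18.0% of all probes) and 7 were lower (15.9%, against 18.0%). They came from 9 genes, and the medians were -0.05 for the ABC probes and 0.06 for all probes. With each array scaled to its upper quartile in place of quantile normalization, the median of all probes in this comparison was 0.22. Under mock it was 0.16. Under FK866 this scaling called 8 of the 44 ABC probes higher and 8 lower. Among all 22753 probes it called 5500 higher and 3576 lower, against 4099 and 4087 with quantile normalization. The higher calls among all probes thus went from 50.1% to 60.6% of the calls. The parental arrays were scanned in sessions of their own, all resistant arrays in another, so line and scan session cannot be told apart. In bulk RNA, fewer cells of a type and less RNA per cell cannot be told apart either.

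**Figure D2:**
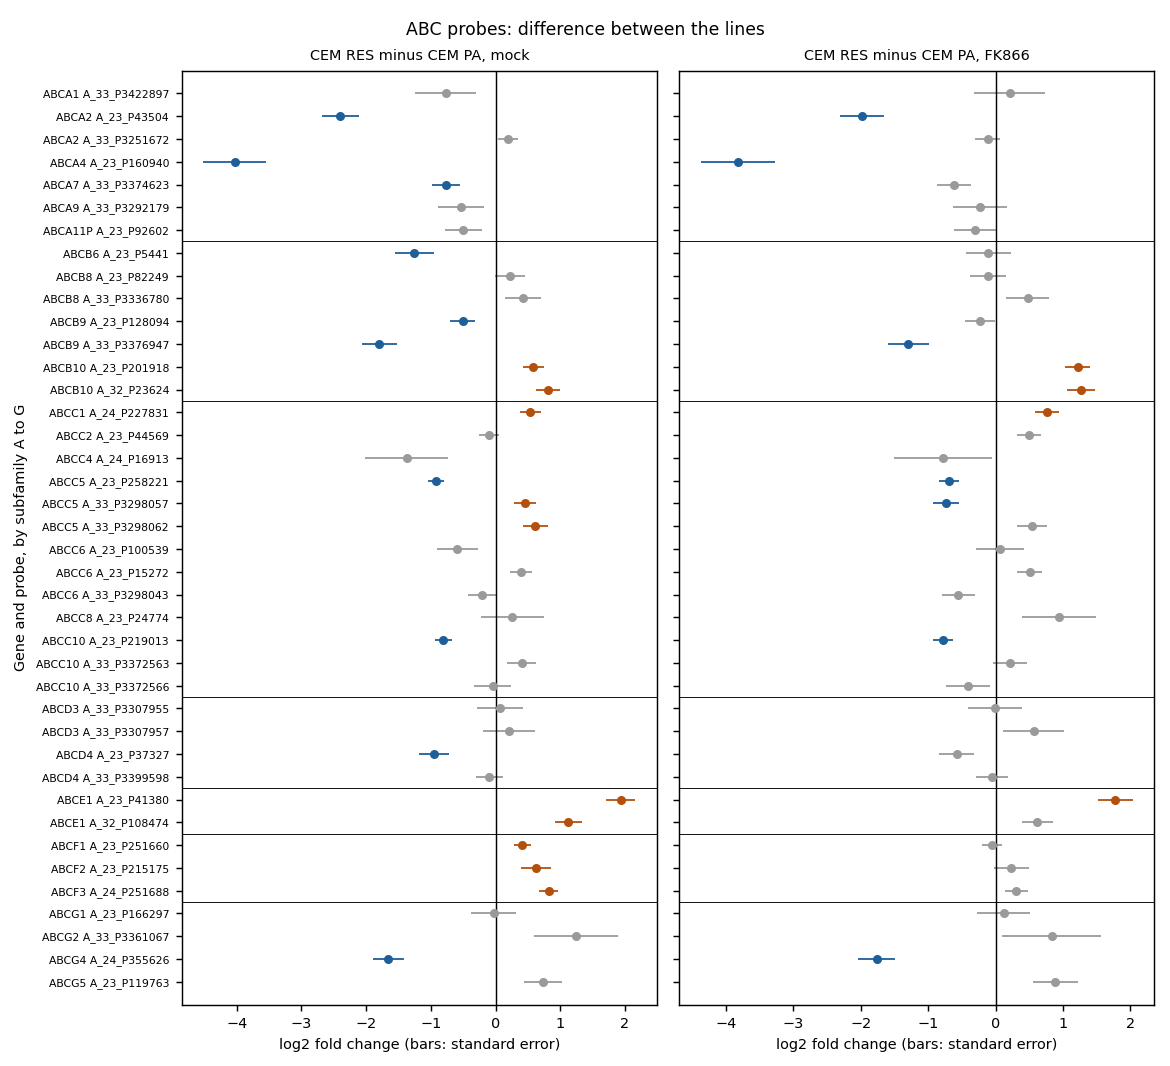
Log2 fold change of CEM RES over CEM PA for 40 of the 44 tested ABC probes, under mock (left) and under FK866 (right), with standard errors; orange and blue points are probes with an adjusted p under 0.05, higher or lower in CEM RES, and grey points the others. ABCE1 lies farthest to the right and ABCA4 farthest to the left in the mock panel. There 5 of 5 probes of subfamilies E and F are orange, against 24.9% of all probes called higher. In the FK866 panel only 1 of these 5, from ABCE1, is orange.

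Among the members higher in CEM RES under mock, the largest difference was in ABCE1, the ribosome recycling factor that splits ribosomes after termination. Probe A_23_P41380 read 10.75, 10.32 and 9.87 in CEM PA mock, 10.51 and 10.41 in CEM PA with FK866, 12.09, 12.22, 12.57 and 12.09 in CEM RES mock, and 11.95, 12.54, 12.51 and 11.95 in CEM RES with FK866. The lines did not overlap under either treatment. The difference was 1.93 ± 0.23 (SE) under mock (3.81-fold, adjusted p = 4.69e-05) and 1.78 ± 0.26 under FK866 (3.42-fold, adjusted p = 0.000368).

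The other ABCE1 probe, A_32_P108474, starts 725 bases away and moved the same way. It read 6.54, 6.41 and 6.33 in CEM PA mock, 7.0 and 7.06 in CEM PA with FK866, 7.67, 7.35, 7.99 and 7.19 in CEM RES mock, and 7.69, 7.76, 7.92 and 7.22 in CEM RES with FK866. All CEM RES arrays lay above all CEM PA arrays. The line difference was 1.12 ± 0.21 (SE) under mock (adjusted p = 0.000908), while under FK866 it was 0.62 ± 0.23 and did not pass (adjusted p = 0.0559).

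The 3 members of subfamily F were also called higher in CEM RES under mock, against 24.9% of all probes. ABCF3, a partner of the GCN pathway of translational control, read 10.85, 11.02 and 10.73 in CEM PA mock, 11.15 and 11.28 in CEM PA with FK866, 11.43, 11.69, 11.89 and 11.73 in CEM RES mock, and 11.29, 11.60, 11.70 and 11.50 in CEM RES with FK866. No CEM PA array reached a CEM RES array of the same treatment. Its difference was 0.82 ± 0.15 (SE) under mock (1.76-fold, adjusted p = 0.000988) and 0.31 ± 0.17 under FK866 (adjusted p = 0.184). ABCF2 differed by 0.62 ± 0.23 and ABCF1, which associates with initiation factor eIF2, by 0.41 ± 0.13 under mock, and neither passed under FK866 (0.23 ± 0.26 and -0.06 ± 0.15). The ABCF2 mock groups overlapped, and its call was lost in 13 of 24 alternatives (adjusted p up to 0.126). These included the upper-quartile scaling and leaving out replicate 2 or 3 of CEM PA mock, either array of CEM PA with FK866, or replicate 2, 3 or 4 of CEM RES mock. The annotated transcript of this probe now belongs to a readthrough of ABCF2 and H2BK1. The ABCF1 call was lost without replicate 2 or 3 of CEM PA mock and when only the mock groups were fitted, with an adjusted p of at most 0.0722.

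The mitochondrial members of subfamily B went in both directions. ABCB10, a transporter of the inner membrane that is needed for haem synthesis, was higher in CEM RES by both of its probes. Probe A_32_P23624 read 7.03, 6.62 and 6.81 in CEM PA mock, 6.58 and 6.77 in CEM PA with FK866, 7.37, 7.83, 7.88 and 7.43 in CEM RES mock, and 7.62, 8.12, 8.14 and 7.90 in CEM RES with FK866. The lines did not overlap. Its difference was 0.81 ± 0.19 (SE) under mock (adjusted p = 0.00356) and 1.27 ± 0.21 under FK866 (2.41-fold, adjusted p = 0.000798).

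Probe A_23_P201918 of ABCB10, whose start lies 214 bases off, read 10.35, 10.22 and 9.79 in CEM PA mock, 9.70 and 9.57 in CEM PA with FK866, 10.71, 10.79, 10.84 and 10.47 in CEM RES mock, and 10.82, 10.83, 11.09 and 10.68 in CEM RES with FK866. Here too every CEM RES array exceeded every CEM PA array of its treatment. The difference was 0.58 ± 0.17 (SE) under mock (adjusted p = 0.0126) and 1.22 ± 0.19 under FK866 (2.32-fold, adjusted p = 0.000547). Without replicate 3 of CEM PA mock the first lost its call (adjusted p = 0.0620).

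ABCB6, a porphyrin transporter of mitochondria and other membranes, was lower in CEM RES under mock. It read 9.52, 8.81 and 9.56 in CEM PA mock, 8.57 and 7.91 in CEM PA with FK866, 8.25, 7.79, 7.74 and 8.38 in CEM RES mock, and 8.4, 7.55, 7.93 and 8.63 in CEM RES with FK866. The mock groups were apart, while the FK866 groups overlapped. The difference was -1.26 ± 0.30 (SE) under mock (2.39-fold lower, adjusted p = 0.00419) and -0.11 ± 0.33 under FK866 (adjusted p = 0.827).

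Neither of the probes of ABCB8, part of a mitochondrial potassium channel, passed (0.22 ± 0.23 and 0.42 ± 0.28).

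ABCB9, a lysosomal peptide transporter related to TAP, was lower in CEM RES by its probe A_33_P3376947, which is matched only to an Ensembl transcript. That probe read 6.40, 6.46 and 6.59 in CEM PA mock, 6.11 and 5.97 in CEM PA with FK866, 3.98, 5.34, 4.58 and 4.86 in CEM RES mock, and 4.97, 5.00, 4.31 and 4.71 in CEM RES with FK866. All CEM RES arrays were below all CEM PA arrays. The difference was -1.80 ± 0.27 (SE) under mock (3.47-fold lower, adjusted p = 0.000244) and -1.29 ± 0.31 under FK866 (2.45-fold lower, adjusted p = 0.00654), the latter lost without replicate 1 of CEM PA with FK866 (adjusted p = 0.0614). The other probe, 2657 bases away, differed by -0.51 ± 0.20 under mock, a call lost in 17 of 24 alternatives (adjusted p up to 0.442), leaving out any 1 of the 3 CEM PA mock arrays, replicate 1 or 3 of CEM RES mock, or replicate 1, 2 or 3 of CEM RES with FK866 among them.

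**Figure D3:**
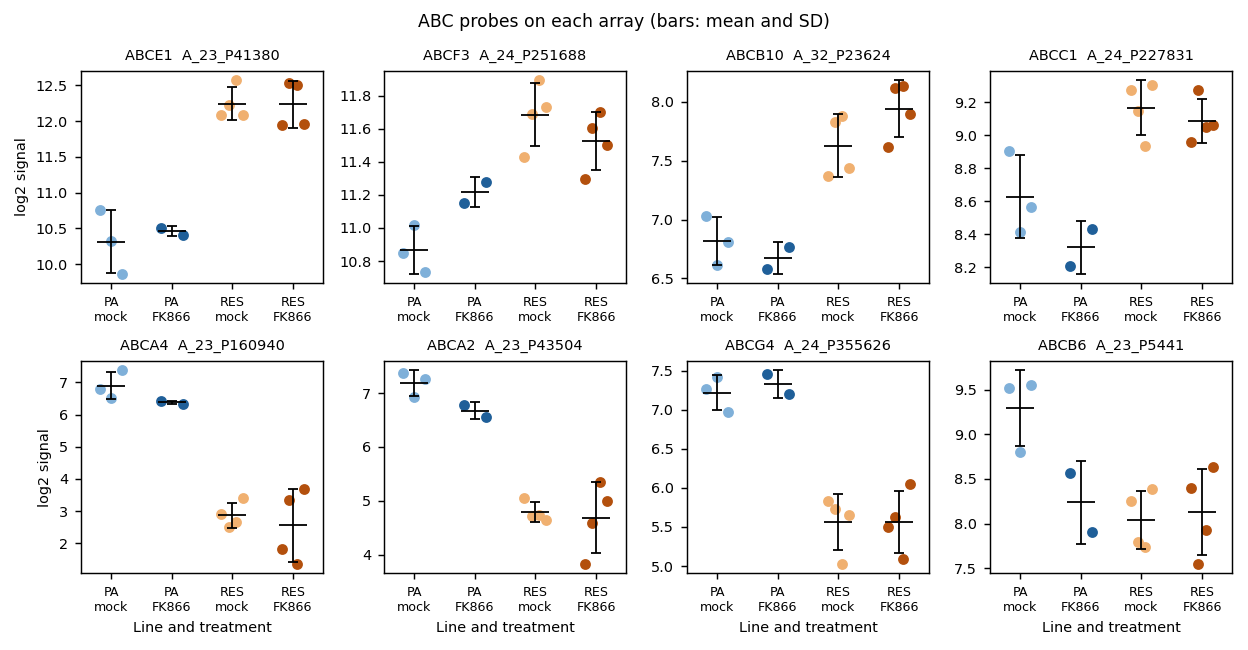
Log2 signal of 8 ABC probes on each of the 13 arrays (dots), with the group mean and SD (bars), each panel on its own axis. ABCE1, ABCF3, ABCB10 and ABCC1 in the upper row lie higher in CEM RES, and ABCA4, ABCA2 and ABCG4 in the lower row lie lower in both treatments, whereas the ABCB6 groups overlap under FK866.

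Subfamily A moves lipids and retinoids. Of its 7 tested probes, 3 were lower in CEM RES under mock and 0 higher, against 22.7% and 24.9% of all probes. Under FK866 2 were lower and 0 higher, against 18.0% of all probes each way. ABCA4, the retinylidene transporter best known from the retina, read 6.80, 6.53 and 7.37 in CEM PA mock, 6.42 and 6.34 in CEM PA with FK866, 2.91, 2.52, 2.66 and 3.40 in CEM RES mock, and 1.82, 3.33, 1.36 and 3.69 in CEM RES with FK866. The lines were far apart, and CEM RES was well above background on 1 of 4 mock arrays and 2 of 4 FK866 arrays, so the probe was tested only because of the CEM PA groups, where it was high. The fitted difference was -4.03 ± 0.48 (SE) under mock (adjusted p = 4.96e-05) and -3.83 ± 0.55 under FK866 (adjusted p = 0.000318). Where a CEM RES array read below the lowest signal called well above background on it, that lowest signal was taken in its place. On this scale CEM PA was 11.9-fold higher under mock and 9.67-fold higher under FK866. Background correction with an offset of 50 gave a smaller mock difference, -1.37.

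ABCA2, a lipid transporter of lysosomes, was lower in CEM RES by 1 of its 2 probes. Probe A_23_P43504 read 7.38, 6.93 and 7.26 in CEM PA mock, 6.79 and 6.57 in CEM PA with FK866, 5.05, 4.72, 4.74 and 4.65 in CEM RES mock, and 3.83, 4.58, 5.35 and 4.99 in CEM RES with FK866. The lines did not overlap, and the difference was -2.40 ± 0.29 (SE) under mock (5.27-fold lower, adjusted p = 5.01e-05) and -1.99 ± 0.33 under FK866 (adjusted p = 0.000750). Probe A_33_P3251672, which starts 16295 bases away, ran from 4.79 to 5.01 in CEM PA mock and from 4.86 to 5.29 in CEM RES mock. These ranges overlapped, with a difference of 0.19 ± 0.16 under mock (adjusted p = 0.347) and -0.12 ± 0.18 under FK866.

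ABCA7, a lipid transporter of macrophages and brain cells, read 10.84, 11.03 and 11.30 in CEM PA mock, 10.88 and 10.76 in CEM PA with FK866, 10.54, 10.03, 10.08 and 10.51 in CEM RES mock, and 10.51, 9.73, 10.05 and 10.55 in CEM RES with FK866. The lines were apart under both treatments. The difference passed under mock (-0.77 ± 0.22 (SE), adjusted p = 0.0130) and not under FK866 (-0.61 ± 0.25, adjusted p = 0.0745). Without replicate 3 of CEM PA mock the call was lost (adjusted p = 0.0573). The tested probes of ABCA1, ABCA9 and the pseudogene ABCA11P did not pass in either line comparison, with mock differences of -0.77, -0.53 and -0.50.

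In subfamily G, ABCG4, a sterol exporter, was lower in CEM RES. It read 7.27, 7.42 and 6.97 in CEM PA mock, 7.45 and 7.21 in CEM PA with FK866, 5.83, 5.73, 5.03 and 5.66 in CEM RES mock, and 5.49, 5.63, 5.09 and 6.06 in CEM RES with FK866. No array of one line entered the range of the other. The difference was -1.66 ± 0.24 (SE) under mock (3.15-fold lower, adjusted p = 0.000196) and -1.76 ± 0.27 under FK866 (3.39-fold lower, adjusted p = 0.000547). ABCG1, its close relative, differed by -0.03 ± 0.35 under mock, and ABCG5, a sterol half-transporter, by 0.73 ± 0.30 (adjusted p = 0.0583).

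Subfamily D imports acyl-CoAs into peroxisomes, except ABCD4, which serves lysosomal cobalamin export. ABCD4 probe A_23_P37327 read 9.43, 9.39 and 9.38 in CEM PA mock, 9.31 and 9.30 in CEM PA with FK866, 7.75, 8.72, 8.77 and 8.56 in CEM RES mock, and 8.90, 8.56, 8.95 and 8.49 in CEM RES with FK866. The lines did not overlap, and the lowest value was on the CEM RES mock array that stood apart. The difference was -0.95 ± 0.23 (SE) under mock (1.93-fold lower, adjusted p = 0.00447), a call that held without any single array, and -0.58 ± 0.26 under FK866 (adjusted p = 0.0970). Its other probe, annotated on the opposite strand, differed by -0.10 ± 0.21. For ABCD3, a peroxisomal transporter of branched-chain acyl-CoAs, both probes had mock differences within their standard errors (0.21 ± 0.40 and 0.06 ± 0.36).

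ABCC10, a multidrug resistance protein, was lower in CEM RES by 1 of 3 probes. Probe A_23_P219013 read 9.82, 9.61 and 9.76 in CEM PA mock, 9.63 and 9.49 in CEM PA with FK866, 8.86, 8.84, 8.87 and 9.12 in CEM RES mock, and 8.84, 8.68, 8.93 and 8.72 in CEM RES with FK866. The lines were separate, with a difference of -0.81 ± 0.13 (SE) under mock (1.75-fold lower, adjusted p = 0.000385) and -0.77 ± 0.15 under FK866 (adjusted p = 0.00189). The other ABCC10 probes, 1 of them matched only to an Ensembl transcript, differed by 0.40 ± 0.22 and -0.04 ± 0.29 under mock and did not pass.

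Of the remaining C members, ABCC4, an exporter of cyclic nucleotides and nucleoside analogues, differed by -1.37 ± 0.64 (SE) under mock (adjusted p = 0.0968). Its value on the array that stood apart was 1.71, against 4.84 to 5.09 on the other CEM RES mock arrays. ABCC2, ABCC8 and the 3 tested ABCC6 probes also stayed short of the threshold, from -0.60 to 0.40 under mock. One tested ABCC6 probe is also annotated to a pseudogene of ABCC6, so their signals cannot be told apart.

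ABCC5, an exporter of cyclic nucleotides and nucleotide analogues, was the only gene whose probes were called in opposite directions. Probe A_23_P258221 read 12.90, 12.86 and 12.97 in CEM PA mock, 12.63 and 12.62 in CEM PA with FK866, 12.15, 12.05, 11.87 and 11.89 in CEM RES mock, and 12.05, 11.73, 11.92 and 12.03 in CEM RES with FK866. The lines were apart, with a difference of -0.92 ± 0.13 (SE) under mock (1.89-fold lower, adjusted p = 0.000160) and -0.69 ± 0.15 under FK866 (adjusted p = 0.00359).

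The other ABCC5 probes start up to 67844 bases away and are both annotated to a second ABCC5 transcript. Probe A_33_P3298062 read 11.36, 11.11 and 10.59 in CEM PA mock, 11.43 and 10.88 in CEM PA with FK866, 11.53, 11.86, 11.66 and 11.48 in CEM RES mock, and 11.65, 11.71, 11.63 and 11.78 in CEM RES with FK866. CEM RES lay higher, by 0.62 ± 0.19 (SE) under mock (adjusted p = 0.0203) and by 0.54 ± 0.22 under FK866 (adjusted p = 0.0747). The mock call was lost without replicate 3 of CEM PA mock or replicate 2 of CEM RES mock, and when only the mock groups were fitted (adjusted p at most 0.0999).

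Probe A_33_P3298057 read 8.28, 7.86 and 7.87 in CEM PA mock, 9.04 and 9.14 in CEM PA with FK866, 8.53, 8.35, 8.69 and 8.27 in CEM RES mock, and 8.16, 8.38, 8.67 and 8.23 in CEM RES with FK866. The CEM PA arrays with FK866 were above all other arrays. The difference between the lines was 0.46 ± 0.17 (SE) under mock, with overlapping groups and a call lost in 15 of 24 alternatives (adjusted p up to 0.141). These included leaving out either CEM PA array with FK866, replicate 2 or 3 of CEM PA mock, replicate 1, 2 or 3 of CEM RES mock, or replicate 2 or 4 of CEM RES with FK866. Under FK866 it was -0.73 ± 0.19 (adjusted p = 0.0121), lost without either CEM PA array with FK866 (adjusted p at most 0.0877).

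**Figure D4:**
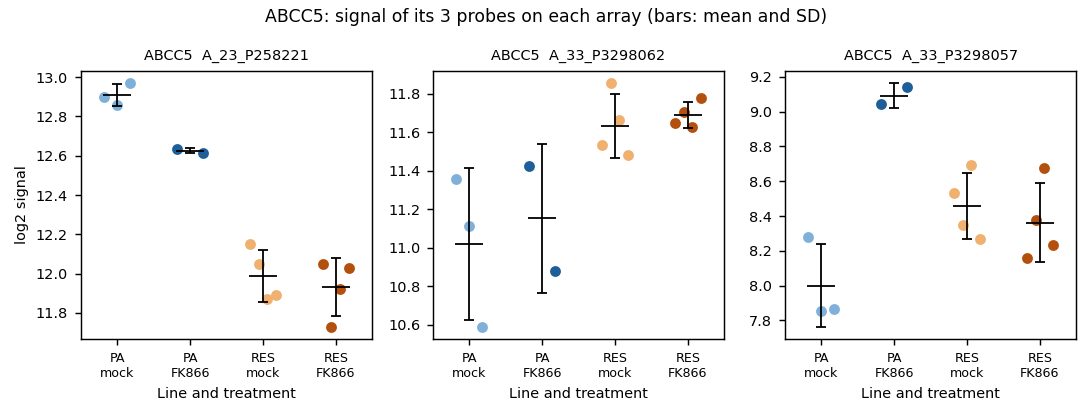
Log2 signal of the 3 ABCC5 probes on each of the 13 arrays (dots), with the group mean and SD (bars), each panel on its own axis. From left to right, CEM RES mock lies lower than CEM PA mock, higher than it, and higher with overlap; in the right panel the 2 CEM PA arrays with FK866 read 9.04 and 9.14, above all others.

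In CEM PA, FK866 was followed by 1 called change among the 44 ABC probes, against 1.53% of all probes tested. This was the same ABCC5 probe, A_33_P3298057, which rose by 1.09 ± 0.21 (SE; 2.13-fold, adjusted p = 0.0242). The other ABCC5 probes changed by -0.29 ± 0.16 and 0.13 ± 0.23 and did not pass. Among all probes, 252 were called higher and 95 lower with all arrays, and 7 and 0 with slide as a block. Without replicate 2 of the mock arrays these were 100 and 13, and without replicate 3 they were 238 and 45. The ABCC5 rise was 0.76 in the scan session that held 1 array of each treatment. The ABCC5 rise was 1.28 in the session that held 1 FK866 and 2 mock arrays. It lost its call without either FK866 array or without replicate 2 or 3 of the mock arrays, as well as with slide as a block (adjusted p = 0.653), where only 1 slide holds both treatments.

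Pairing arrays by replicate number gave 3 calls in CEM PA in place of 1 (6.82% of the ABC probes), while the share over all probes went from 1.53% to 5.35%. The paired values were 1.03 for ABCC5 (adjusted p = 0.0321), -0.93 for ABCB6 (adjusted p = 0.0309) and -0.65 for ABCB10 probe A_23_P201918 (adjusted p = 0.0373). Without pairing, ABCB6 differed by -1.06 ± 0.35 (SE; adjusted p = 0.177) and that ABCB10 probe by -0.48 ± 0.20 (adjusted p = 0.290). Within the scan sessions, the ABCB6 difference was -0.95 and -1.27.

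By the double threshold, 2 ABC probes were called in CEM PA (ABCC5 up and ABCB6 down), against 6.69% of all probes. With an unadjusted p under 0.05 there were 5, against 14.4%. They were ABCC5, ABCB6, ABCB10 A_23_P201918, ABCB9 A_23_P128094 (-0.53 ± 0.23, SE) and ABCE1 A_32_P108474 (0.60 ± 0.25). The median change over the ABC probes was -0.06, and over all probes -0.003.

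In CEM RES, limma called 0 ABC probes after FK866, and 0.0% of all probes. With an unadjusted p under 0.05 there was 1, against 5.15%, and by the double threshold the same 1, against 1.3%. This was ABCA1, the cholesterol and phospholipid exporter, which read 1.41, 3.64, 2.96 and 4.04 under mock (2 of 4 arrays well above background) and 3.62, 4.15, 4.20 and 4.10 with FK866 (4 of 4). It was tested only because of the FK866 group, where it read high. The groups overlapped, the lowest value was on the mock array that stood apart, and the fitted change was 1.01 ± 0.43 (SE; adjusted p = 0.938), or 0.47 with mock arrays raised to the lowest signal called well above background on them. It was 0.41 on one slide and 1.60 on the other, which held that array.

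The responses of the lines differed for 0 ABC probes after adjustment in limma, against 0.413% of all probes. At an unadjusted p under 0.05 there were 6, against 12.1%, and by the double threshold 2, against 8.03%. The first of these was ABCC5 A_33_P3298057, whose response was smaller in CEM RES by -1.19 ± 0.26 (SE; adjusted p = 0.0802), which passed only with array quality weights (adjusted p = 0.0243), where 1.27% of all probes were called. The second was ABCB6, whose change was more positive in CEM RES by 1.15 ± 0.45 (adjusted p = 0.331). The others were ABCB10 A_23_P201918, ABCC2 A_23_P44569, ABCF1 and ABCF3, between -0.51 and 0.63.

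**Figure D5:**
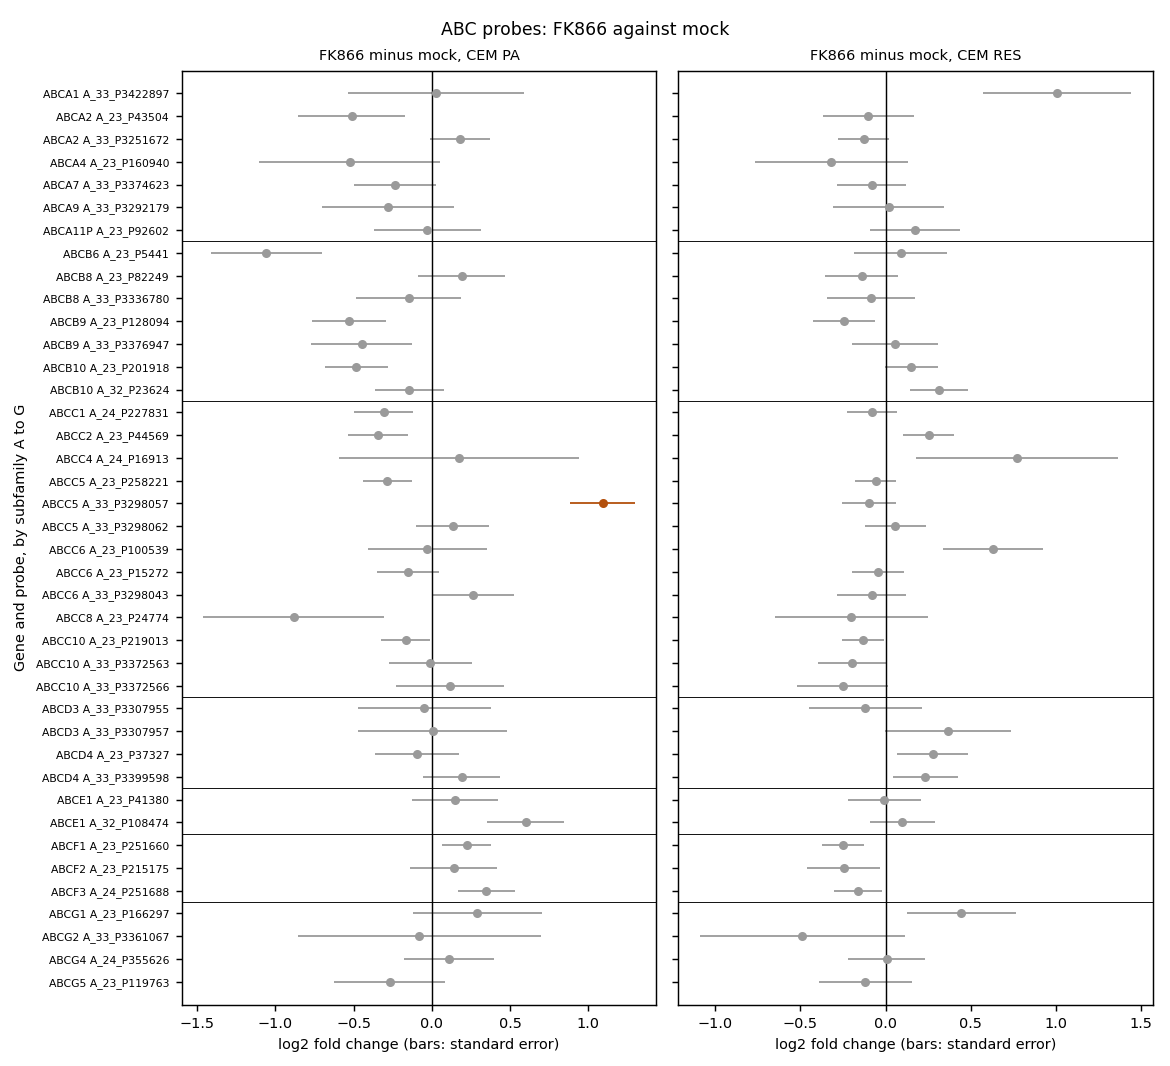
Log2 fold change of FK866 over mock for 40 of the 44 tested ABC probes in CEM PA (left) and CEM RES (right), with standard errors; coloured points have an adjusted p under 0.05. The only coloured point is ABCC5 A_33_P3298057 in CEM PA, at 1.09.

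Probes of a gene often did not move alike. Of the 11 genes with several tested probes, 6 had all their probes on the same side of 0 in the mock comparison of the lines and 5 did not. Of the 8 such genes with any call, all probes were called in the same direction in 3 (ABCE1, ABCB10 and ABCB9), and ABCC5 alone had calls in both directions. The gap between a gene's lowest and highest difference had a median of 0.99 and was 2.59 for ABCA2. Of the 29 tested genes, taking the brightest probe of each also gave 17 called, and averaging the probes of a gene gave 14. Of all 17596 genes, 4350 were higher and 4039 lower by the brightest probe. By the average 4378 were higher and 3871 lower.

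ABC proteins that carry other symbols were read beside the family. TAP1 and TAP2, which load peptides into the endoplasmic reticulum, were measured on all arrays, and TAP2 was lower in CEM RES mock, with a difference of -0.65 ± 0.17 (SE; adjusted p = 0.00793), whereas TAP1 differed by -0.03 ± 0.14. CFTR was well above background on 1 of 13 arrays, from CEM PA with FK866. Among 8 peptide-loading genes 3 were higher in CEM RES mock (against 24.9% of all probes), PDIA3 (0.94 ± 0.15) and CANX (0.78 ± 0.15) the most, and 1 lower (against 22.7%), B2M (-0.38 ± 0.12).

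Genes that work with the members are given for the same mock comparison, with 1 probe for each gene, and stand beside 24.9% of all probes higher and 22.7% lower. Of 10 tested drug-handling genes outside the family, 3 were higher, YBX1 (1.37 ± 0.28, SE) and the nucleoside transporter SLC29A1 (0.92 ± 0.19) the most. Lower were 2, the conjugating enzyme GSTP1 (-3.79 ± 0.16) and the vault protein MVP (-0.77 ± 0.22). Of 15 sterol and lipid efflux genes 5 were lower, MYLIP (-1.56 ± 0.32) and SREBF1 (-1.14 ± 0.26) the most, and 0 were higher. MYLIP, which degrades the LDL receptor, was also called after FK866 in CEM PA (1.96 ± 0.39, adjusted p = 0.0288). Whether the MYLIP call held in the alternative fits was not examined. With only the CEM PA groups fitted, 3 of all probes were called higher.

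Among 18 genes of mitochondrial iron-sulphur and haem synthesis, the setting of ABCB10, 8 were higher and 2 lower. This list and the next 2 stand beside the same 24.9% of all probes higher and 22.7% lower. LYRM4 (1.47 ± 0.14, SE) and HSPA9 (1.04 ± 0.19) were raised the most in CEM RES, and CPOX (-1.10 ± 0.19) and HSCB (-0.66 ± 0.17) were lower. Among 11 tested peroxisomal and cobalamin partners of subfamily D, 3 were higher and 4 lower, from MMACHC (1.66 ± 0.23) and HSD17B4 (0.92 ± 0.16) to LMBRD1 (-1.28 ± 0.16) and PEX5 (-2.15 ± 0.25). PEX3 also fell with FK866 in CEM PA (-1.22 ± 0.17, adjusted p = 0.00630), and its responses differed between the lines (adjusted p = 0.0186). When only the CEM PA groups were fitted, 0 of all probes were called lower, so the PEX3 fall was not called there. Whether its difference between the lines held in the alternative fits was not examined. Among 9 translation partners of ABCE1 and subfamily F, ETF1 (0.83 ± 0.24) and EIF2S2 (0.38 ± 0.13) were higher, and EIF2S1 (-0.58 ± 0.20) was lower.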

How the data were processed

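RNA of 13 samples was measured on 1-colour Agilent 4x44K v2 arrays. Per the file headers and labels, the authors' scanner software (Agilent Feature Extraction 10.7.7.1) wrote the deposited spot intensities, background-subtracted by the software. A log2 table deposited with them (authors' values) served as an alternative. From the intensities, log2 signals were quantile normalized, control and outlier spots left out and spots of a probe averaged. Probes were kept (22753 of 34127) if all arrays of 1 or more groups called them well above background, and each was tested with limma 3.58.1 (R 4.3.3) in 1 fit of the 4 groups, with Benjamini-Hochberg adjustment over all kept probes, two-sided. Tables and figures used Python 3.11.15. The fit was tested on simulated data. The number of arrays limits the precision. Deviations of same-numbered arrays correlated by 0.199 to 0.474 in CEM RES and 0.353 to 0.460 in CEM PA. In CEM PA the deviations of the 2 FK866 arrays mirror each other. Same-numbered CEM PA arrays also shared a scan session, so pairing and session cannot be told apart there. Replicate number was run as a block, an alternative. Others were the scaling, background, filter, weights, slide and session blocks, single arrays left out, and gene-level summaries. The members, gene lists and the rule for probes named in full (adjusted p under 0.05 with a log2 fold change over 0.75, plus ABCB1, ABCC1, ABCG2 and genes called both ways) were chosen with earlier results of these data known. Listed genes are the 2 largest calls each way. Exon and UTR positions of probes were not analysed here. The values of a few genes are not reported here and not drawn, though the counts include them.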

Additional observations from a re-analysis of the deposited data

Results flagged for a closer look

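Within the CEM RES groups of 4 arrays, 6 of the 88 sets of values held 1 array far from the other 3, where chance gives about 1 in 20. In CEM RES mock, ABCC4 A_24_P16913 read 1.71 on replicate 1 against 4.84 to 5.09 on the others, ABCB8 A_33_P3336780 read 9.44 on replicate 2 against 8.75 to 8.87, and ABCC10 A_23_P219013 read 9.12 on replicate 4 against 8.84 to 8.87. In CEM RES with FK866, ABCD3 A_33_P3307955 read 10.83 on replicate 2 against 10.24 to 10.31, ABCC6 A_23_P100539 read 5.21 on replicate 3 against 4.43 to 4.49, and ABCC8 A_23_P24774 read 3.31 on replicate 4 against 4.90 to 5.13.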

How the results depend on the processing

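Between the lines under mock, 22 ABC probes were called; 12 of these calls held at an adjusted p under 0.05 in every alternative fit that tested the probe, 10 were lost at least once and none reversed. Between the lines under FK866, 8 of 11 calls held in the same way. Single arrays left out gave 14 to 22 calls under mock, 9 to 15 under FK866, 0 to 1 for FK866 in CEM PA, and 0 for CEM RES and for the difference between the responses. The 14 came without replicate 3 of CEM PA mock, where 4968 of all probes were higher and 4588 lower. Without replicate 1 of CEM RES mock 20 were called, and of all probes 5399 were higher and 5181 lower. The 15 came without replicate 4 of CEM RES with FK866, where 3817 of all probes were higher and 3879 lower. With all arrays these were 5667 and 5168 under mock and 4099 and 4087 under FK866. The double threshold gave 14 calls between the lines under mock, 2 for FK866 in CEM PA, 1 in CEM RES and 2 for the difference. Array quality weights gave 18 between the lines under FK866 (40.9%, against 45.6% of all probes) and 1 for the difference between the responses (2.27%, against 1.27%). For FK866 in CEM PA, fitting only its 2 groups gave 0 calls, with 3 of all probes higher and 0 lower. Slide as a block gave 0, with 7 and 0 among all probes, against 252 and 95 in the fit of all 4 groups. In CEM PA the brightest probe of a gene gave 0 genes, with 69 of all genes higher and 21 lower. The averaged probe also gave 0, with 32 and 11. The replicate block gave 3 calls there and, in CEM RES and for the difference, 0, and changed no other call. The difference between the lines cannot be paired.

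ABCG2, near background, changed sign without ever being called: for FK866 in CEM PA it was 2.42 with slide as a block, 0.014 with session as a block, 0.36 with the replicate block, and -0.999 to 0.84 without single arrays; between the lines under FK866 it was -0.085 to 1.75 without single arrays; for the difference between the responses it was 0.081 with upper-quartile scaling, 0.28 with array weights, and -1.33 to 0.51 without single arrays. Background correction with an offset of 50 shrank the largest mock differences, ABCA4 to -1.37 and ABCA2 to -1.17. Signals near background left 31 of 75 probes, and 20 of 49 genes, without a test. Within-session values of the difference between the responses could not be had, since no session holds both lines.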
